A study of Mus musculus with 38 samples.

Results

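Chil3, Chil4, Ear1, Ear2, Rnase2a, Marco, Car4, Fabp4 and Pparg are genes of lung-resident macrophages, and they were followed here through tumor progression and chemotherapy of the MMTV-PyMT mouse. They were chosen because several of them showed the largest rises in lung-derived samples on these same arrays, so their differences between lung-derived samples and primary tumors are descriptions and carry no test. Of the 9 genes, 8 had a probe of their own name, 10 probes in all among the 41174 probes and 28786 gene names of the array. Ear2 had none, and only 2 probes shared with other Ear genes list its accession.

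The donors were MMTV-PyMT;actin-GFP mice, in which a mammary tumor virus promoter drives the polyoma middle T oncogene and actin regulatory sequence drives GFP. Hyperplasias of donors aged 3 weeks were transplanted into mammary fat pads of FVB/n mice without either transgene. GFP+ cells were sorted from tumors or lungs, and the RNA of each sample (Cy5) was hybridized with the Universal mouse reference (Cy3) on an Agilent two-color array. The progression experiment held 5 adenomas (5 weeks after transplantation), 6 carcinomas (18 weeks), 6 samples of disseminated cells from lungs, each pooled from several mice, and 5 samples of lung metastases, collected after the primary tumor had been removed. The chemotherapy experiment held 6 untreated tumors (labeled Control), 6 residual tumors (labeled Regressed tumor) taken 10 days after dose 1 of docetaxel, doxorubicin and cyclophosphamide, and 4 relapsed tumors (labeled Resistant tumor) taken 10 days after dose 4, with doses every 21 days from 8 weeks. Progression RNA was amplified in 2 rounds and chemotherapy RNA in 1, so the experiments were normalized and tested apart. Every value below is a log2 ratio of sample to reference unless a single channel is named, so a value of 0 stands for equal signal in both channels and not for absence. Such a ratio does not allow the level of a gene to be set against that of another gene.

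Alveolar macrophages are the phagocytes of the airspaces. They clear surfactant, depend on GM-CSF and TGF-beta, and take their identity from Pparg, a nuclear receptor that pairs with retinoid X receptors and switches on genes of lipid uptake and storage. Chil3 (Ym1) and Chil4 (Ym2) are secreted chitinase-like proteins without chitinase activity, Ear1, Ear2 and Rnase2a are eosinophil-associated ribonucleases of the RNase A family, Marco is a scavenger receptor, Car4 a membrane-anchored carbonic anhydrase and Fabp4 a fatty acid binding protein. None of these genes belongs to one cell type: Chil3 is also made by neutrophil precursors and other macrophages, Fabp4 by fat and endothelium, and the Ear genes by eosinophils.

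Probes are placed by the mm7 coordinates of the array files and were not mapped to exons here. The Chil3 probe, filed under the older name Chi3l3, lay on chromosome 3 at 105965855 to 105965914 and that of Chil4 (Chi3l4) at 106022134 to 106022413. The Chil4 probe also lists the accession of Chil3, so the pair is not fully separated. The Ear1 probe lay on chromosome 14 at 39808157 to 39808216 and that of Rnase2a (Ear11) at 46589069 to 46589128. Marco was read on chromosome 1 (120342087 to 120342147), Car4 on chromosome 11 (85034716 to 85034775), Pparg on chromosome 6 (115515909 to 115515968, 10 spots) and Fabp4 by 3 probes on chromosome 3, of which that at 10212718 to 10213447 was the brightest in the progression experiment and that at 10212636 to 10212696 in the chemotherapy experiment. Both probes filed as Ear10 and Ear3 list the accessions of Ear2, Ear3, Ear10 and Ear12 together and had no placed position.

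The promoters of the chitinase-like and ribonuclease genes are shown because both families were high in the same lung-derived samples. Each runs from 250 bases before to 50 bases after the RefSeq start site in build GRCm38.p6 and is written along its own minus strand: Chil3 at chr3:106167515-106167814, Chil4 at chr3:106219430-106219729, Ear1 at chr14:43819590-43819889 and Rnase2a at chr14:51256063-51256362. Capitals mark matches on either strand to ACTTCC (the core letters of ETS factors, the family of PU.1), TTCNNNGAA (STAT) or TATAAA (a core promoter element). AGGTCA, the half-site of nuclear receptors such as Pparg, was searched too.
Chil3 promoter: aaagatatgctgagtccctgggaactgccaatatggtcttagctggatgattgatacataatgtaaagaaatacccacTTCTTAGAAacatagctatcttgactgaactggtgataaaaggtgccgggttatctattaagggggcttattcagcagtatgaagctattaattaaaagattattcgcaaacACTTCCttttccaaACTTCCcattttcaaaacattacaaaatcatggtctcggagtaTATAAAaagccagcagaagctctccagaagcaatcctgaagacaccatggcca
Chil4 promoter: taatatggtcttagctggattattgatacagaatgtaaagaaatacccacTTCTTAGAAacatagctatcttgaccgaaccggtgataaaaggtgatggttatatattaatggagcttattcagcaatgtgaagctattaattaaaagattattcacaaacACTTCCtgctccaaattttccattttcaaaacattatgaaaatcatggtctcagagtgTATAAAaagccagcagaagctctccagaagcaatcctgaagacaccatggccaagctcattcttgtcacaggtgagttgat
Ear1 promoter: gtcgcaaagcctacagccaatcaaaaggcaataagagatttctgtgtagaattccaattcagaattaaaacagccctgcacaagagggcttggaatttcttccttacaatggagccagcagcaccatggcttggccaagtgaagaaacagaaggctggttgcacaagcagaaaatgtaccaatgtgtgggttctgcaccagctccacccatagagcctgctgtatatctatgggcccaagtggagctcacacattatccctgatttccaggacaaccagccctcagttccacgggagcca
Rnase2a promoter: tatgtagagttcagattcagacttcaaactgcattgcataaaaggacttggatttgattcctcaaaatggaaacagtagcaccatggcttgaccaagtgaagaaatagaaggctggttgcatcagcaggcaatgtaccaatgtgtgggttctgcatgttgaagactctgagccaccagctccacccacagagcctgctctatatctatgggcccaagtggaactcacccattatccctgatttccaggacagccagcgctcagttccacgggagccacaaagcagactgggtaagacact
Chil3 and Chil4 were identical at 252 of 329 aligned columns (76.6%), and each held 1 match to the STAT letters, 1 match to TATAAA and the ETS core, with 2 matches to the latter in Chil3 and 1 in Chil4. Ear1 and Rnase2a were identical at 230 of 342 columns (67.3%) and Ear1 and Ear2 at 294 of 303 (97.0%), and none of the 4 motifs was found in these 3 promoters. Other Ear promoters held matches. That of Ear10, identical to Ear1 at 277 of 303 columns (91.4%), held 2 to the ETS core, and that of Ear6 held 1 to AGGTCA. The columns include gaps, also at the ends, so a shift between 2 windows lowers the share and the likeness of the paired bases is higher. TATAAA, for example, began at −3 from the start site in Chil3 and at −31 in Chil4. Among 32851 promoters of this length, 23.8% held ACTTCC, 8.3% TTCNNNGAA, 13.6% TATAAA and 16.3% AGGTCA. A match of letters is no evidence of binding.

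Between 47.6 and 78.3% of probes were well above background on an array. Carcinoma 6 and disseminated 6 stood apart, with median correlations of 0.768 and 0.685 with the other arrays of their groups, against at least 0.940 for the other carcinomas and 0.773 for the other disseminated samples. Metastases 4 was the lowest of its group with 0.782, against 0.848 to 0.890 for the other metastases. Carcinoma and metastases shared 3 slides, and adenoma and disseminated cells another 3 slides scanned on another day, so each of these pairs could be compared within slides while the other pairs could not. The label of a tumor was checked with 11 mammary epithelial markers. Their mean log2 ratio was 3.47 to 4.20 in adenoma and 2.64 to 4.07 in carcinoma, but reached down to 0.37 in a sample of disseminated cells (disseminated 3) and 0.28 in one of metastases (metastases 4).

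Chil3 is described first. Its log2 ratio was −1.01, −1.05, −0.26, −0.47 and −1.61 in the adenomas and 0.12, 0.08, 0.45, −0.24, −0.63 and −0.02 in the carcinomas. It was 10.55, 8.37, 5.94, 4.99, 9.59 and 7.39 in the disseminated samples and 6.28, 2.80, 9.19, 9.76 and 5.77 in the metastases. Every lung-derived sample lay above every primary tumor. By the ratio the lung-derived samples spread far more among themselves, which did not hold in the sample channel alone, read below. The mean of disseminated cells was 7.80 ± 2.13 (SD, n = 6), that of metastases 6.76 ± 2.82 (SD, n = 5), that of carcinomas −0.04 ± 0.36 (SD, n = 6) and that of adenomas −0.88 ± 0.53 (SD, n = 5). On the same slides, disseminated cells exceeded adenoma by 6.94 to 9.71 and metastases exceeded carcinoma by 3.12 to 7.74. In whole-cell RNA like this, a change in the number of cells of a type and a change in RNA per cell cannot be told apart.

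Chil4 followed the same order of groups. It read 0.26, 0.04, 0.18, 0.48 and 0.27 in the adenomas, of which 2 were well above background, and 0.42 to 1.68 in the carcinomas (median 0.49). In disseminated cells it ran from 4.67 to 7.24 (median 5.92), and in metastases it was 4.98, 3.28, 6.28, 6.66 and 3.74. The lowest lung-derived sample, metastases 2, lay above the highest primary tumor, carcinoma 6.

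**Figure D1:**
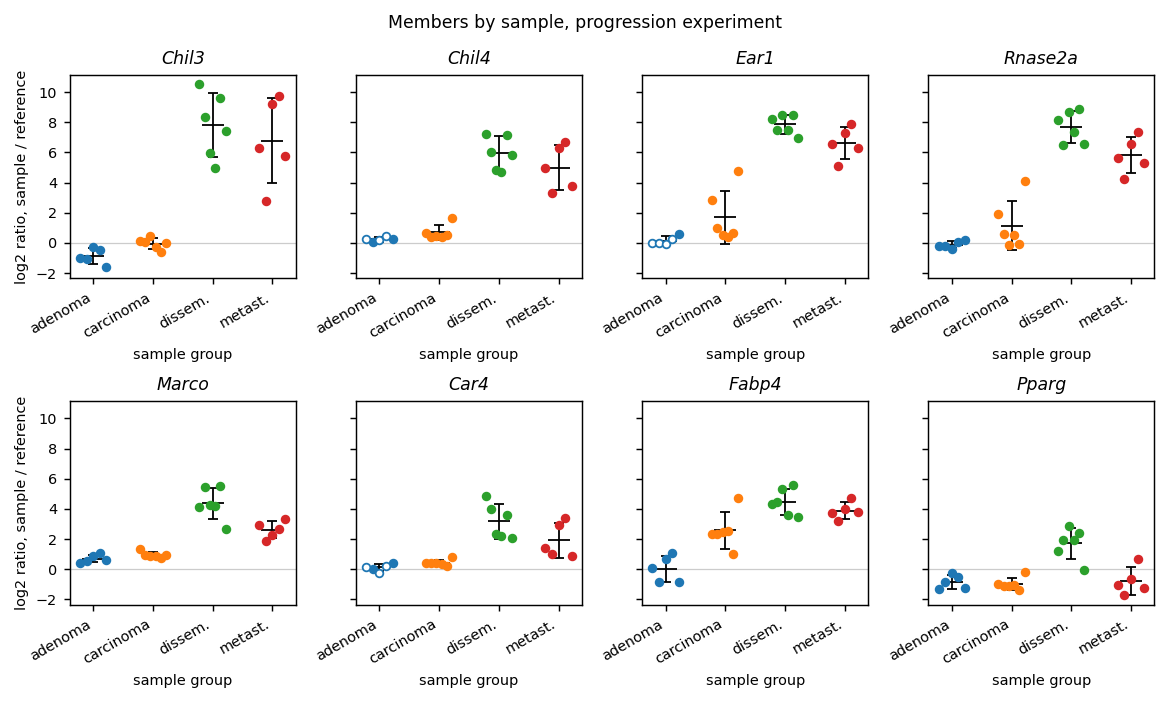
Log2 ratio of sample to reference (vertical axis) for the 8 genes with a probe of their own in adenoma, carcinoma, disseminated cells (dissem.) and metastases (metast.). Each point is a sample, open points were not well above background, and lines give the mean ± SD. Chil3 in lung-derived samples runs from 2.80 to 10.55, whereas Pparg in metastases lies among the primary tumors, and carcinoma 6 is the highest carcinoma for Ear1 (4.77) and Rnase2a (4.08) but not for Chil3 (−0.02).

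Of the 8 genes, Ear1 varied least among disseminated samples by the ratio (SD 0.63). Ear1 was 0.01, −0.02, −0.10, 0.26 and 0.59 in the adenomas, of which only the last was well above background, and 0.39 to 4.77 in the carcinomas (median 0.85). In disseminated cells it ran from 6.97 to 8.51 (median 7.86), and in metastases it was 6.57, 5.09, 7.28, 7.89 and 6.27. The metastasis with the lowest value thus lay just above carcinoma 6, the highest carcinoma, and carcinoma 1 was next at 2.82. Rnase2a was −0.23, −0.18, −0.37, 0.03 and 0.19 in the adenomas, −0.13 to 4.08 in the carcinomas (median 0.55), 6.46 to 8.87 in disseminated cells (median 7.75) and 5.66, 4.25, 6.53, 7.34 and 5.28 in metastases. For both genes carcinoma 6 and metastases 2 nearly met.

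The 2 probes shared by Ear2, Ear3, Ear10 and Ear12 were not well above background in any adenoma. The probe filed as Ear10 ran from −0.04 to 1.46 in carcinoma (median 0.12) and from 5.91 to 7.18 in disseminated cells (median 6.86). In metastases it was 3.38, 2.10, 4.28, 4.94 and 2.54. The probe filed as Ear3 gave 5.88 to 6.72 in disseminated cells and 3.67, 2.44, 4.72, 5.19 and 2.69 in metastases. On these probes every disseminated sample stood above every metastasis by the ratio, which held for none of the main probes of the 8 genes. Since adenoma was below background, its difference is a bound on the sample channel: disseminated cells were at least 291-fold higher on the first probe and at least 319-fold on the second, and metastases at least 16.03- and 20.6-fold.

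The surface proteins covered a smaller range. Marco was 0.43, 0.53, 0.88, 1.07 and 0.64 in the adenomas and 0.73 to 1.35 in the carcinomas (median 0.91). It was 2.70 to 5.51 in disseminated cells (median 4.22) and 2.90, 1.89, 2.28, 2.68 and 3.35 in metastases. Unlike the ribonucleases, Marco was not raised in carcinoma 6 (0.94). Car4 was 0.13, 0.03, −0.24, 0.23 and 0.42 in the adenomas, of which only the second and the last were well above background, and 0.24 to 0.81 in the carcinomas (median 0.41). It was 2.08 to 4.86 in disseminated cells (median 2.95) and 1.43, 1.001, 2.92, 3.38 and 0.87 in metastases, whose lowest sample was next to carcinoma 6 (0.81).

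Fabp4 on its main probe was 0.08, −0.87, 0.70, 1.05 and −0.87 in the adenomas and 1.01 to 4.72 in the carcinomas (median 2.40). It was 3.43 to 5.58 in disseminated cells (median 4.42) and 3.69, 3.21, 3.99, 4.72 and 3.79 in metastases. Carcinoma 6 reached the highest metastasis, so carcinoma overlapped with both lung-derived groups. The third Fabp4 probe (10216627 to 10216686) was much dimmer and ran from 0.23 to 0.87 in metastases against 1.33 to 3.75 in disseminated cells. Pparg, the regulator, was higher in disseminated cells than in the other groups. It was −1.28, −0.85, −0.22, −0.55 and −1.26 in the adenomas, −1.35 to −0.18 in the carcinomas (median −1.08), −0.03 to 2.87 in disseminated cells (median 1.91) and −1.05, −1.73, −0.63, 0.67 and −1.22 in metastases.

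Set side by side, all 8 genes with a probe were higher in disseminated cells than in adenoma without overlap of the groups, by a median of 5.08 on the log2 scale, where 4.23% of all gene names were higher without overlap. Against carcinoma this was so for 7 of 8 (all but Fabp4), with 2.12% of all gene names. Metastases lay above adenoma without overlap for 7 of 8 (all but Pparg), with 9.78%, and above carcinoma for 6 of 8 (neither Fabp4 nor Pparg), with 4.86%. The genes were chosen on these contrasts, so nothing is read from these counts. Within slides, disseminated cells exceeded adenoma on 3 of 3 slides for all 8 genes, and metastases exceeded carcinoma on 3 of 3 slides for 7 of them, with Pparg higher on 2 of 3 (−0.97 to 0.85). The order from high to low was disseminated cells, metastases, carcinoma and adenoma for all but Pparg, whose adenoma mean (−0.83) lay above its carcinoma mean (−0.96). Neighbors in that order overlapped for all 8 genes between disseminated cells and metastases and between carcinoma and adenoma.

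The channels of Chil3 were then read apart, a step chosen after seeing the data. The reference RNA is the same on every array, yet the reference channel of the Chil3 probe had a mean log2 level of 12.79 ± 0.18 over adenoma arrays, 13.24 ± 0.29 over carcinoma arrays, 9.55 ± 1.43 over disseminated arrays and 10.33 ± 2.05 over metastasis arrays (SD). The sample channel was 13.57 ± 0.50, 15.21 ± 0.51, 18.64 ± 0.42 and 18.58 ± 0.64 in the same order. In unnormalized scanner units the median reference signal of the probe was 7139 in adenoma, 8252 in carcinoma, 647 in disseminated and 2463 in metastasis arrays, and the median sample signal 6525, 40789, 365638 and 434382. Over the 11 lung-derived samples the sample level of Chil3 ran from 17.51 to 19.21 and the reference level from 7.57 to 12.73. Over these 11 arrays the ratio of Chil3 followed its reference channel (r = −0.976) more closely than its sample channel (r = 0.779), and its reference channel ran opposite to the sample channel of Chil4 (r = −0.952), all as descriptions on shared arrays. With the sample channel alone, disseminated cells exceeded adenoma by 5.07 for Chil3 (33.6-fold) in place of 8.68 (411-fold), and metastases exceeded carcinoma by 3.37 in place of 6.80. Why the reference signal of this probe was lower on these arrays was not tested.

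**Figure D2:**
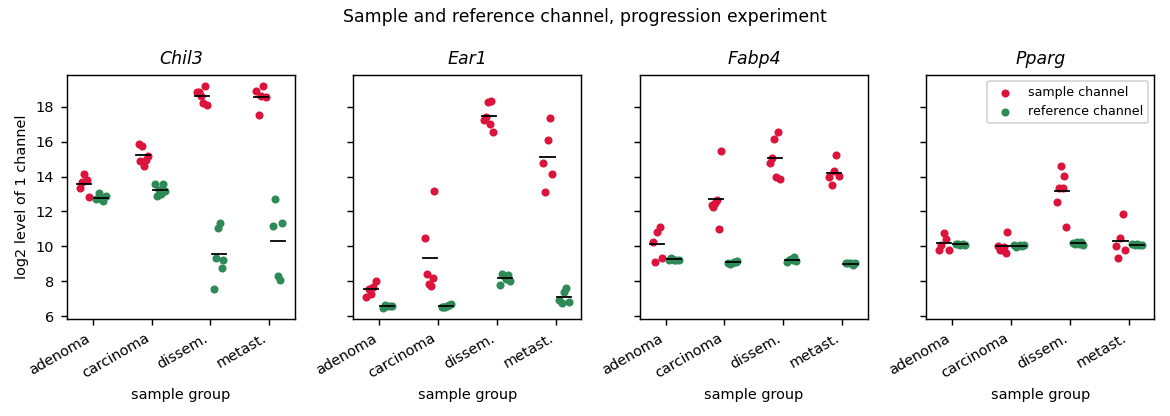
Log2 level of the sample channel (red) and of the reference channel (green), each normalized alone, for Chil3, Ear1, Fabp4 and Pparg in the 4 progression groups. Each point is an array and lines give group means. The reference channel of Chil3 goes from a mean of 13.24 in carcinoma arrays to between 7.57 and 11.36 in disseminated arrays, whereas those of Fabp4 and Pparg stay level and that of Ear1 is higher in disseminated arrays.

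For the ribonucleases the reference channel moved the other way. Ear1 had a reference level of 6.57 ± 0.05 in adenoma, 6.57 ± 0.08 in carcinoma, 8.17 ± 0.23 in disseminated and 7.08 ± 0.37 in metastasis arrays, so its ratio understated the difference in the sample channel, which was 9.95 (990-fold) between disseminated cells and adenoma in place of 7.70 (208-fold). Rnase2a differed by 9.08 in the sample channel in place of 7.79. The reference levels of Fabp4 and Pparg stayed between 8.94 and 10.24 on all arrays, and their ratio and sample channel gave similar differences (4.44 and 4.94 for Fabp4, 2.55 and 2.99 for Pparg, disseminated cells minus adenoma).

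Metastases were then compared with disseminated cells, a contrast that did not choose the genes, although the samples did. All 8 genes were lower in metastases, by 0.58 to 2.51, with a median of −1.24 against 0.01 over all gene names, and Marco and Pparg fell past the threshold (adjusted p below 0.05 and at least 2-fold, limma). That is 2 of 8 genes called lower, where 3.69% of all gene names were called lower and 7.12% in either direction. Marco fell by 1.75 (3.35-fold, standard error 0.365, adjusted p = 0.00389), from 4.36 ± 1.03 (SD, n = 6) to 2.62 ± 0.56 (SD, n = 5). Pparg fell by 2.51 (5.70-fold, standard error 0.436, adjusted p = 0.00112), from 1.72 ± 1.02 to −0.79 ± 0.91. The groups still overlapped through disseminated 6, with Marco at 2.70 and Pparg at −0.03. The shared Ear probes fell further and without overlap, a separation found on the lower side for 2.01% of gene names: the probe filed as Ear10 by 3.30 (9.86-fold, adjusted p = 6.42e-05) and that filed as Ear3 by 2.51 (5.69-fold, adjusted p = 0.000598). Both calls ended with the scanner's processed signals, where the differences were −0.29 (adjusted p = 0.857) and −0.19 (adjusted p = 0.886), and the cause was not tested. The mean sample-channel log2 levels behind the bounds above were 15.06 in disseminated cells and 10.88 in metastases for Ear10. For Ear3 they were 15.31 and 11.35. The reference channel was well above background on 6 of 6 disseminated arrays for both probes, but on 1 of 5 (Ear10) and 3 of 5 (Ear3) metastasis arrays.

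The remaining 6 genes did not pass between metastases and disseminated cells. Chil3 differed by −1.05 (standard error 1.02, adjusted p = 0.565), Chil4 by −0.97 (0.552, 0.274) and Ear1 by −1.23 (0.640, 0.226). The difference of Chil3 ran from −0.05 without metastases 2 to −1.80 without metastases 4. For Rnase2a the difference was −1.87 (standard error 0.671, adjusted p = 0.0721), for Car4 −1.24 (0.480, 0.0950) and for Fabp4 −0.58 (0.534, 0.533), while the dim Fabp4 probe, tested on its own among all probes, fell by 1.96 (adjusted p = 0.0013). In the sample channel alone, Chil3 differed by only −0.06 (standard error 0.301, adjusted p = 0.932) and Rnase2a fell by 2.68 (adjusted p = 0.0160). The call of Marco was lost when only these 2 groups entered the fit (adjusted p = 0.0693). Without metastases 4 or without disseminated 6 there were 4 calls, with Rnase2a and Car4 added. These groups lay on different slides scanned on different days, so stage and slide cannot be told apart.

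**Figure D3:**
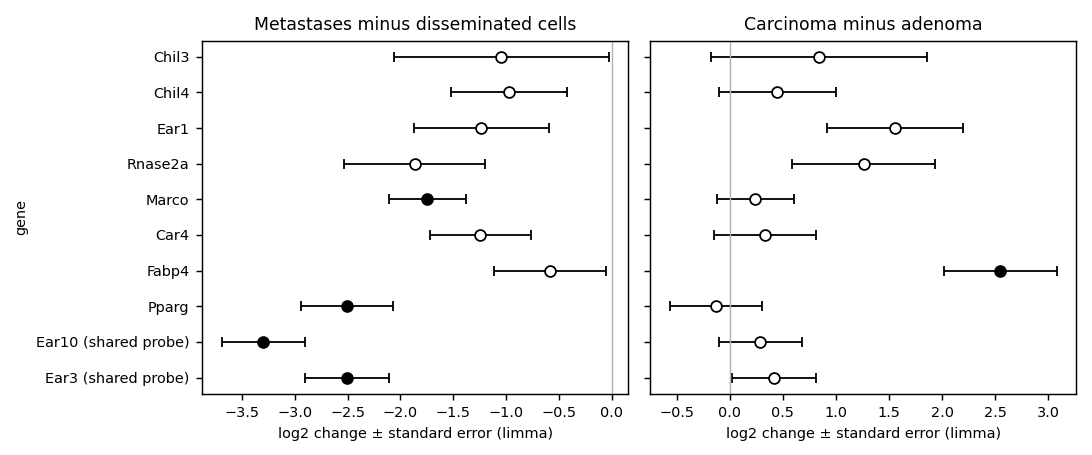
Log2 difference ± standard error from limma for each gene and for the 2 shared Ear probes, metastases minus disseminated cells on the left and carcinoma minus adenoma on the right. Filled points passed the threshold. All 10 points on the left lie below 0, from −0.58 for Fabp4 to −3.30 for the probe filed as Ear10, and on the right only Fabp4 (2.55) passed.

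Carcinoma exceeded adenoma past the threshold for Fabp4 alone among the 8 genes, where 3.3% of all gene names were called in either direction and 1.15% of all gene names were called higher. Fabp4 rose by 2.55 (5.85-fold, standard error 0.534, adjusted p = 0.00513), from 0.02 ± 0.88 (SD, n = 5) to 2.57 ± 1.20 (SD, n = 6), although carcinoma 5 (1.01) lay below the highest adenoma (1.05). Its neighboring probe rose by 2.87 (adjusted p = 0.0045) in a test of all probes. Ear1 differed by 1.56 (standard error 0.640, adjusted p = 0.120) and Rnase2a by 1.26 (0.671, 0.233), and carcinomas 1 and 6 were the highest for both. With a normexp offset of 0 Ear1 passed at 2.12 (adjusted p = 0.0428), and with processed signals Ear1 (3.56, 0.0140) and Chil4 (1.87, 0.0452) passed. Chil3 differed by 0.84 (standard error 1.02, adjusted p = 0.642) as a ratio, but in the sample channel alone it rose by 1.64 (3.12-fold, standard error 0.301, adjusted p = 0.00351), with 12.85 to 14.16 in adenoma and 14.59 to 15.86 in carcinoma. Here too the groups lay on different slides.

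Markers of macrophages moved with these genes. The mean log2 ratio of 16 pan-macrophage markers was 0.07 to 0.61 in adenoma (median 0.55), −0.39 to 4.49 in carcinoma (0.34), 3.33 to 4.54 in disseminated cells (3.87) and 0.78 to 4.98 in metastases (3.32). Lyz2, the lysozyme of macrophages and neutrophils, had group means of −0.32, 0.81, 6.35 and 5.12, and Adgre1 (F4/80) of −1.68, −1.25, 2.97 and 1.54, in the order adenoma, carcinoma, disseminated cells and metastases. Carcinoma 6 had the highest pan-macrophage level of the carcinomas (4.49, the others at most 0.71), the highest Ear1, Rnase2a, Fabp4, Chil4 and Pparg, and a Chil3 ratio of −0.02 that lay within the range of its group. Metastases 2, the lowest metastasis on this list (0.78), had the lowest Chil3 (2.80) and Ear1 (5.09) of its group. Carcinoma 1, with a list level of 0.71, had 0.12 for Chil3 and 2.82 for Ear1, and carcinoma 6 had 4.77 for Ear1. The part of macrophage content in the genes' differences was not tested.

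A list of 16 other genes of alveolar macrophages had mean levels of 0.45 to 0.72 in adenoma, 0.57 to 2.12 in carcinoma, 2.37 to 3.602 in disseminated cells and 0.97 to 2.63 in metastases. Their median difference was 2.62 for disseminated cells minus adenoma and 1.25 for metastases minus carcinoma. Mrc1, the mannose receptor, had group means of 0.01, 0.91, 4.87 and 3.59, and the scavenger receptors Olr1 and Msr1 had −0.19, 0.04, 4.22 and 1.96 and −1.19, −0.66, 3.08 and 0.99. Others on the list had another order: Plet1 was highest in the primary tumors (9.74, 10.46, 8.12 and 9.16), and Bhlhe41 stayed between −0.50 and 0.27. Over all gene names 3.69% were called lower from disseminated cells to metastases. Of the 16 genes on the list 6 fell and 0 rose (limma, with a median of −1.25 and 5 to 8 called with single samples left out). Named after their values were seen, they were Fabp1 (−2.41, adjusted p = 0.00161), Olr1 (−2.26, 0.00929), Abcg1 (−1.93, 0.00428), Lpl (−1.83, 0.0267), Cidec (−1.35, 0.00639) and Siglecf (−1.23, 0.00333), the sialic acid receptor that marks alveolar macrophages and eosinophils. Siglecf was well above background in 0 of 5 adenomas, 2 of 6 carcinomas, 6 of 6 disseminated samples and 3 of 5 metastases, with means of 0.16, 0.33, 1.73 and 0.50.

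Of 14 partners and targets of Pparg, 5 fell from disseminated cells to metastases and 0 rose (limma), where 3.69% of all gene names were called lower. They were Abcg1, Cidec, Lpl and Olr1, which are also on the alveolar macrophage list, and the liver X receptor Nr1h3 (−2.50, adjusted p = 0.000957). Cd36, a lipid scavenger, had means of −2.65, −2.81, 2.52 and 0.58 and did not pass (adjusted p = 0.0715), and Rxra, a retinoid X receptor and partner of Pparg, stayed between 0.46 and 1.10. Of 11 genes of the GM-CSF and TGF-beta inputs, 2 fell from disseminated cells to metastases, Spi1 (PU.1) by 1.67 (adjusted p = 0.00883) and Tgfb1 by 2.27 (adjusted p = 0.000590), and 0 rose. Csf2rb2, a beta subunit of cytokine receptors, was −0.67, −1.32, 3.47 and 1.82 over the 4 groups, while Stat5a and Stat5b stayed between 0.73 and 1.69. Between disseminated cells and adenoma, Csf2, Csf2rb2, Jak2, Spi1, Tgfb1 and Tgfbr1 of the same list were called higher by limma. Csf2ra, Csf2rb, Stat5a, Stat5b and Tgfbr2 were not called there. Csf2ra and Csf2rb differed by 0.63 and −0.26 (limma, adjusted p = 0.209 and 0.453). The genes called or not called there were named after their values were seen.

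Relatives of the genes were read next. Ear6, another eosinophil-associated ribonuclease, had group means of 0.28, 0.97, 7.87 and 5.29 and fell by 2.58 from disseminated cells to metastases (adjusted p = 0.00460), and Ear14 and Rnase2b stayed between 0.09 and 0.36. Of 10 other RNase A genes measured, 4 fell in metastases (Ear3 and Ear10 by the shared probes, Ear6 and Rnase6) and 1 rose, Ang (1.16, adjusted p = 0.0151), angiogenin. With processed signals 0 of them fell, with Ear6 at −0.57 (adjusted p = 0.758) and Rnase6 at −3.21 (adjusted p = 0.104). Among 7 other chitinase family genes 0 passed between metastases and disseminated cells (limma). Chia1, an active chitinase, had means of 0.42, 1.03, 2.59 and 1.38, and Chil1 stayed between 3.43 and 4.05. Of 8 other fatty acid binding proteins 1 fell (Fabp1), and of 15 other carbonic anhydrases 1 rose (Car2, 1.99, adjusted p = 0.0499). Among 9 other scavenger receptors 2 fell (Colec12 and Scarb1), and among 14 genes of the IL-4 and IL-13 response 1 fell (Stat6). Over all gene names 3.69% were called lower and 7.12% in either direction between metastases and disseminated cells, so nothing is read from 1 or 2 calls on such lists. Retnla, which macrophages express with Chil3 under IL-4, had means of 0.47, 2.997, 5.52 and 4.84. It rose by 2.53 from adenoma to carcinoma (adjusted p = 0.0173), as did Krt79 of the alveolar macrophage list (2.42, adjusted p = 0.0126), both named after their values were seen.

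**Figure D4:**
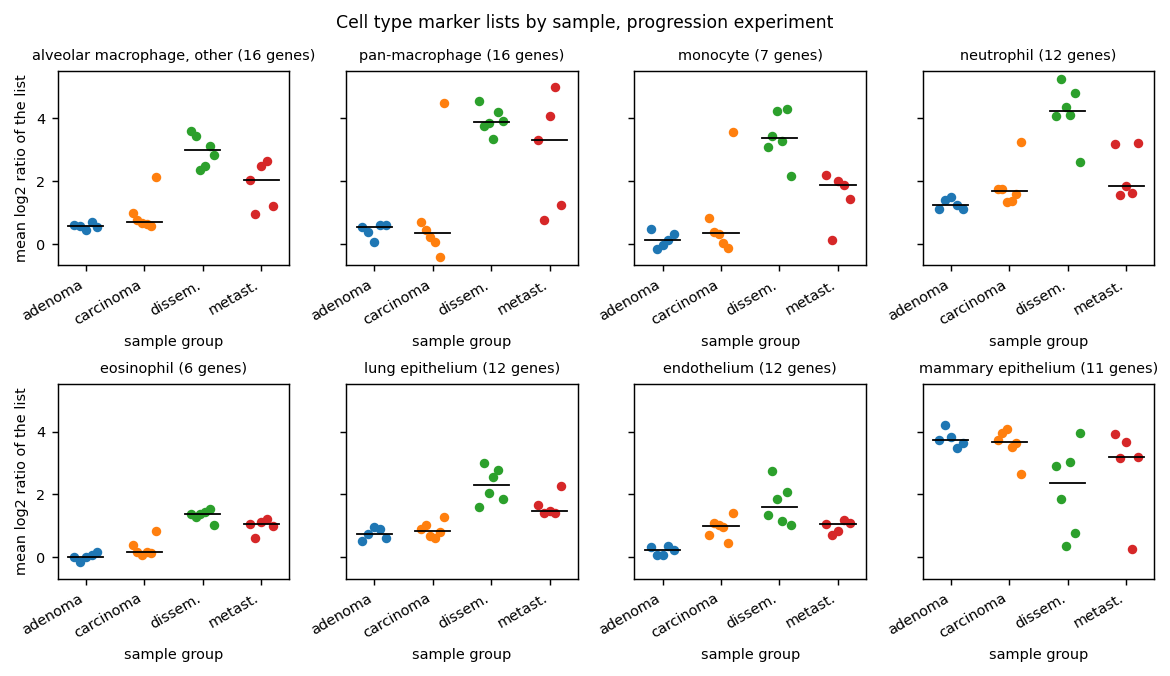
Mean log2 ratio of 8 lists of cell type genes (vertical axis) in each sample of the 4 progression groups, with lines at the group medians. Most lung-derived samples lie above most primary tumors on the macrophage, monocyte and neutrophil lists, and carcinoma 6 joins them with 4.49 on the pan-macrophage list. On the lung epithelial list every lung-derived sample (at least 1.42) lies above every primary tumor (at most 1.28). The mammary epithelial list has a median of 2.37 in disseminated cells and is down to 0.37 in disseminated 3 and 0.28 in metastases 4.

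Other cell types were read from their own lists, and their part in the results was not tested either. Neutrophil markers (12 measured) had levels of 1.12 to 1.49 in adenoma, 1.33 to 3.25 in carcinoma, 2.61 to 5.23 in disseminated cells and 1.56 to 3.22 in metastases, and 8 of 12 fell from disseminated cells to metastases, with 0 rising. The median difference was −2.47. The count of 8 became 2 with processed signals, 4 without metastases 2 or metastases 3 and 5 without disseminated 2 or disseminated 3. On the pan-macrophage list the median was −1.16 and 0 of 16 were called by limma, but 3 without metastases 4 and 4 without carcinoma 6. Of 7 monocyte markers 3 fell, Plac8, Treml4 and Cx3cr1. Eosinophil granule genes had ratios near 0, with Epx at −0.02, 0.13, −0.20 and −0.06 and Prg2 at −0.27, −0.09, −0.22 and 0.13, and Ear6 was the only gene of 6 on that list above 0.40 in any group. Of these 6 genes, Ear6 included, 0 to 5 were well above background in an adenoma and 2 to 5 in a carcinoma. In a disseminated sample 2 to 3 were, and in a metastasis 3 to 5, so a ratio near 0 can stand for 2 dim channels. Lung epithelial markers (12 measured) had levels of 0.53 to 0.95 in adenoma and 0.62 to 1.28 in carcinoma. Their levels were 1.59 to 3.01 in disseminated cells and 1.42 to 2.28 in metastases, so every lung-derived sample lay above every primary tumor. Single genes of this list differed: Sftpc had means of 2.38, 2.14, 5.38 and 5.66 and Sftpa1 of 0.05, 0.43, 4.32 and 3.29, but Sftpb stayed between 0.29 and 0.70. Adipocyte markers (7 measured) had levels of 0.13 to 0.57 in adenoma and 0.41 to 0.71 in carcinoma. Of the 7, 2 to 5 were well above background in an adenoma and 4 to 6 in a carcinoma. Adipoq, an adipocyte hormone, stayed between −0.17 and 0.06. The part of fat cells in the rise of Fabp4 in carcinoma was not tested. Endothelial markers ran from 0.08 to 0.37 in adenoma, 0.45 to 1.42 in carcinoma, 1.04 to 2.73 in disseminated cells and 0.71 to 1.20 in metastases. Between metastases and disseminated cells 3 of 12 endothelial genes (Cdh5, Vwf and Esam), 2 of 12 lung epithelial genes (Sftpd and Scgb3a2) and 1 of 11 T and NK cell genes (Gzmb) fell, and 0 of 6 B cell, 0 of 7 adipocyte and 0 of 11 mammary epithelial genes were called by limma. Of all gene names 3.69% were called lower there and 7.12% in either direction. Between carcinoma and adenoma Emcn (endothelium) and Nr4a1 (monocyte) rose, Cd3d, Cd3g (T cells) and Lalba (mammary epithelium) fell, and no other gene of these cell type lists was called. In that comparison 3.3% of all gene names were called in either direction. Krt8 (−3.20, adjusted p = 0.0242) and Krt18 (−3.19, adjusted p = 0.0148) were called lower by limma in disseminated cells than in carcinoma. Elf5 and Lalba were called lower in disseminated cells than in adenoma, and no other mammary epithelial gene was called in either comparison. These genes and those in the counts above were named after their values were seen.

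Genes most like Chil3 were ranked by Pearson r of their log2 ratios, outside the 9 genes and among 15619 gene names with enough signal. Over the 22 progression arrays they included Ctsk (0.942), Mcoln3 (0.941), Cxcl13 (0.935), Cxcl3 (0.922), Ear6 (0.919), Anxa11 (0.917) and Itgb2 (0.913). Of the chosen genes, Chil4 was closest (0.987) and Pparg farthest (0.628). Over the 11 lung-derived arrays alone, Fcgr2b (0.959), Pcdh7 (0.946), A530064D06Rik (0.940) and Lipo3 (0.922) led, Chil4 still stood at 0.958, and Ear1 and Marco were at 0.708 and 0.332. The ratio of Chil3 on these arrays followed its reference channel, and in the sample channel alone Chil4 stood at 0.686, Ear1 at 0.582 and Marco at 0.528, with 2010003K11Rik (0.906), Fem1c (0.895) and Spats1 (0.887) leading. In the sample channel alone over 22 arrays the order was Anxa11 (0.931), Ear6 (0.911), Sftpc (0.909), Sftpa1 (0.901) and Cd36 (0.899), and only Anxa11 and Ear6 were among the first 8 by both measures.

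In the chemotherapy experiment, which took no part in choosing the genes, most of them were at the limit of the arrays. Ear1, Car4 and both shared Ear probes were not well above background in any of the 16 tumors, and Chil4 in only 2 of 4 relapsed tumors. Rnase2a was above background in 1 of 6 untreated, 4 of 6 residual and 2 of 4 relapsed tumors, with values of −0.32 to 0.62. Chil3, Marco, Fabp4 and Pparg were measured in every tumor. None of the 8 genes was called by limma in residual against untreated, relapsed against untreated or relapsed against residual tumors, where 0.0938%, 0.0104% and 0.212% of all gene names were called. At an unadjusted p below 0.05 there were 1, 0 and 1 genes, and an unmoderated test with adjustment also gave 0, 0 and 0. Comparisons of the 3 groups share tumors and are not independent.

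Chil3 ran from −0.10 to 1.002 in the untreated tumors (median 0.74) and from −0.60 to 0.35 in the residual tumors (median −0.21), and it was 0.26, 0.38, 1.36 and 1.06 in the relapsed tumors. The groups overlapped. Residual tumors differed by −0.80 from untreated tumors (standard error 0.227, adjusted p = 0.263), relapsed from residual tumors by 0.96 (standard error 0.254, adjusted p = 0.216) and relapsed from untreated tumors by 0.17 (standard error 0.254, adjusted p = 0.962). With slide as a block these were −0.43, 1.11 and 0.68, and within the single slide that held both groups −1.06, 0.48 and 1.31 (2 tumors against 1). The reference channel of the probe did not differ in this experiment as it had in the lungs, with differences between groups of −0.22 to 0.14 (adjusted p 0.676 to 0.851), and the sample channel gave −0.67 and 0.76 for the first 2 comparisons.

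**Figure D5:**
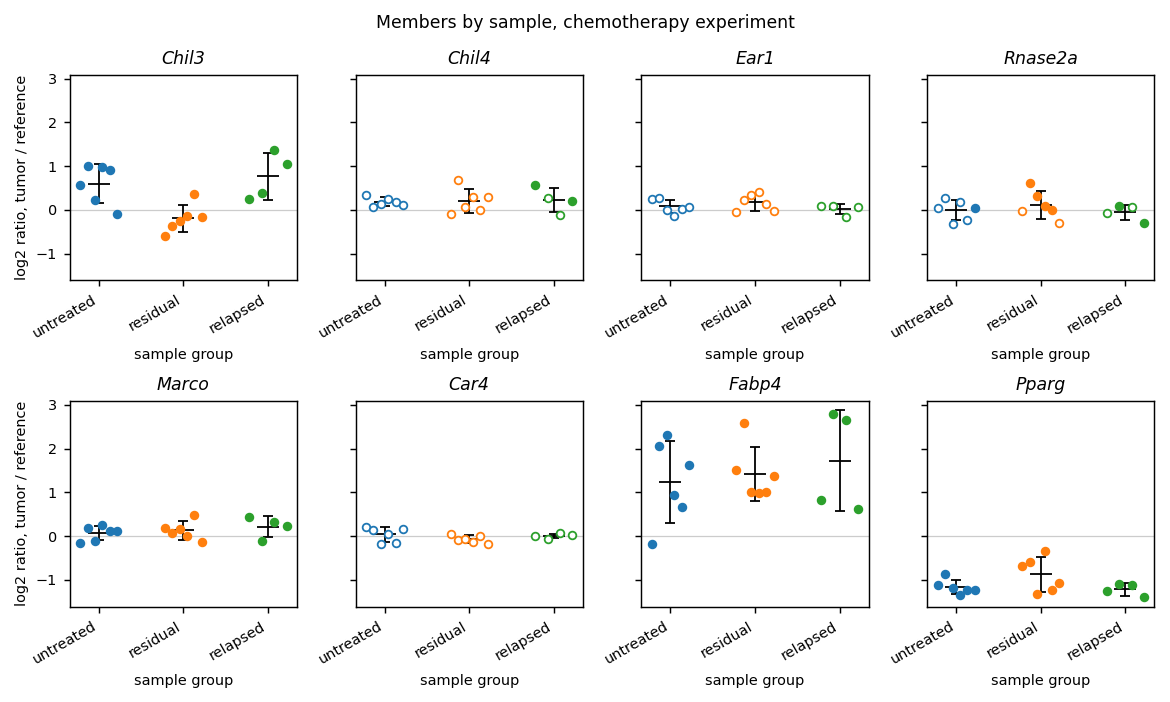
Log2 ratio of tumor to reference (vertical axis) for the 8 genes in untreated, residual and relapsed tumors. Points are tumors, open points were not well above background, and lines give the mean ± SD. Chil3 lies lowest in residual tumors (−0.60 to 0.35) with overlap, Car4 and Ear1 have open points throughout, and Fabp4 spreads from −0.19 to 2.78.

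Ratios of Chil3 in tumors did not follow those of Chil4. Over the 16 tumors of this experiment Chil3 had r = −0.223 with Chil4, which was mostly below background, but 0.987 with Ica1l, 0.978 with Flywch1 and 0.959 with Tpra1, 3 genes chosen after their values were seen. Means of Ica1l were 2.13 ± 0.39 for the 6 untreated, 1.35 ± 0.37 for the 6 residual and 2.28 ± 0.54 for the 4 relapsed tumors (SD), and it was not called either (residual minus untreated −0.78, adjusted p = 0.267). In the 11 primary tumors of the progression experiment Chil3 still tracked Ica1l (r = 0.834) more than Chil4 (0.419). In the 11 lung-derived samples, where the ratio of Chil3 followed its reference channel, r was −0.676 for Ica1l and 0.958 for Chil4, against 0.686 for Chil4 between the sample channels alone. These correlations share arrays and reference and are descriptions.

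Fabp4 ran from −0.19 to 2.31 in untreated (median 1.28) and 0.99 to 2.59 in residual tumors (median 1.19), and it was 0.83, 2.78, 2.66 and 0.62 in relapsed tumors. Pparg ran from −1.35 to −0.87 in untreated and −1.33 to −0.35 in residual tumors and was −1.26, −1.10, −1.11 and −1.40 in relapsed tumors. On slide 2, which held both, residual tumors lay 2.24 above the untreated tumor for Fabp4 and 0.49 above it for Pparg. Residual tumors differed from untreated tumors by 0.18 for Fabp4 (standard error 0.467, adjusted p = 0.942) and 0.29 for Pparg (standard error 0.148, adjusted p = 0.594). Marco stayed between −0.16 and 0.49 in all 16 tumors. Among the gene lists, 1 gene was called in all 3 comparisons together, Angptl4, a secreted inhibitor of lipoprotein lipase among the Pparg targets, which fell by 1.09 from residual to relapsed tumors (standard error 0.206, adjusted p = 0.0331). Between these 2 groups 0.212% of all gene names were called. The pan-macrophage list was −0.31 to 2.14 in untreated, −0.47 to 1.43 in residual and −0.76 to 0.68 in relapsed tumors, and 0 of its 16 genes were called.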

How the data were processed

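The data came from 38 two-color Agilent arrays. The authors deposited scanner intensity values per spot, made with Agilent Feature Extraction 10.7 and not normalized, and a table of log2 ratios of sample to reference after their own background correction and normalization with limma. Values reported here start from the intensities. Software was limma 3.58.1 under R 4.3.3, with the data.table package (version 1.17.8) and statmod 1.5.0. Normexp background correction (offset 50) preceded loess inside each array, and arrays of the same experiment were then quantile normalized together. Spots of a probe were averaged. RefSeq accessions named 22951 probes and the array files 18223, and the brightest probe stood for a gene. Array number and signal over background limit the precision.

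For each experiment, a single limma model over its groups gave moderated tests, adjusted by Benjamini-Hochberg over 28786 gene names. Calls needed at least a 2-fold change with adjusted p under 0.05. Where the labels do not tie samples to separate animals, p-values measure the spread between these samples. Lower bounds set a channel that was not well above background at the higher of its own value and the lowest signal well above background. Single-channel levels were background-corrected with normexp and quantile normalized across arrays. The members and the gene lists were chosen with earlier results of these data known. List genes are named for the 3 largest and 3 smallest differences of lung-derived minus primary means, and exceptions are marked. Of the 8 genes most like Chil3, 1 is not reported here.

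Alternatives were processed signals, a normexp offset of 0, the deposited log2 ratios, Aquantile scaling, no scaling across arrays, a filter on dim probes, each probe or the mean of probes, blocks for slide or for replicate number, fits of the compared groups alone, an unmoderated test, an adjusted p below 0.01, each sample left out and, added after seeing the data, the sample channel alone. In simulated data the procedure recovered 95% of genes changed by a log2 value of 2 and 100% of those changed by 4 for residual against untreated tumors (28759 genes, 0 false calls), and 89% and 100% for metastases against disseminated cells (28388 genes, 4 false calls). The simulated noise was normal and independent for each gene, without slide effects or outlying arrays. These rates therefore do not cover slides that differ between groups or arrays that stand apart.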

Additional observations from a re-analysis of the deposited data

Results flagged for a closer look

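Of 70 groups of 4 to 6 samples tested for a sample that lay far from the others, 8 were flagged, where chance gives about 1 in 20 (3.5). Carcinoma 6 was the highest carcinoma in 5 of them: Chil4 at a log2 ratio of 1.68 (the others 0.42 to 0.67), Car4 at 0.81 (0.24 to 0.44), Pparg at −0.18 (−1.35 to −0.95), the shared probe filed as Ear10 at 1.46 (−0.04 to 0.38) and the shared probe filed as Ear3 at 1.81 (0.12 to 0.57). The same sample had the highest pan-macrophage level of its group (4.49). Marco was highest in carcinoma 1 at 1.35 (0.73 to 0.94). In the chemotherapy experiment Fabp4 was highest in residual 2 at 2.59 (0.99 to 1.52), and Ear1 was lowest in relapsed 3 at −0.16 (0.05 to 0.10), where the probe was not well above background.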

How the results depend on the processing

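The median over the 8 genes of lung-derived minus primary means was 3.94 and ran from 3.78 to 4.10 with single samples left out. The number of these genes called between carcinoma and adenoma, 1, became 2 with a normexp offset of 0 (adding Ear1), 3 with processed signals (adding Chil4 and Ear1) and 2 with the sample channel alone (adding Chil3), and stayed at 1 to 1 with single samples left out. The number called between metastases and disseminated cells, 2, became 1 with only the groups compared, and ran from 2 to 4 with single samples left out, 4 without metastases 4 or without disseminated 6. Rnase2a was also called there with Aquantile or no normalization between arrays (−1.99, adjusted p = 0.0225), without carcinoma 6 and with the sample channel alone. The 6 alveolar macrophage genes that fell became 5 to 8 with single samples left out. In the 3 chemotherapy comparisons the count stayed at 0 under all alternatives that were run. With processed signals the count of neutrophil markers that fell was 2 and that of other RNase A genes 0, both shared Ear probes included, and the cause was not tested. No called value changed sign. Slide as a fixed block could not be fitted for carcinoma against adenoma or metastases against disseminated cells, which share no slide. Replicate numbers did not pair the samples: deviations of samples with the same number correlated at −0.41 to 0.42 (14 pairs, chemotherapy) and −0.41 to 0.33 (31 pairs, progression). With the replicate block the counts were 0, 0 and 0 in the chemotherapy comparisons, 1 for carcinoma against adenoma and 2 for metastases against disseminated cells. Signals near background limit Ear1, Car4 and Chil4 in the chemotherapy tumors and in adenoma.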
